A study of Mus musculus with 384 samples.

Results

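The report concerns 10 transcription factor genes that mark activated or resting states of T cells, in regulatory T (Treg) cells sorted singly from the ear skin of mice. They were chosen by name: the effector factors Batf, Irf4, Prdm1, Maf, Nfil3 and Bhlhe40, and the factors of naive and resting T cells Bach2, Satb1, Tcf7 and Lef1. All 10 were found among the 50556 gene symbols of the deposited count matrix, 30597 of them counted at least once. Ears of mice had received 5% imiquimod, a Toll-like receptor agonist that inflames skin, or a vehicle control, and Treg cells were sorted on day 3. Each treatment had 2 mice and 2 plates of single cells, and the labels tie no plate to a mouse. They give no strain, genotype, sex or age. A further 16 wells held 10 cells and 20 held none, and neither kind carries a treatment label.

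BATF and IRF4 bind DNA together at composite sites and drive the program by which Treg cells leave the resting state and settle in tissues. The product of Prdm1, BLIMP-1, is a repressor of terminally differentiated effector cells, c-MAF and NFIL3 are leucine-zipper factors tied to interleukin-10 production, and BHLHE40 is a repressor induced by T cell receptor signals. In the opposite state, BACH2 occupies sites of activation genes and holds them down, Prdm1 among them, SATB1 organises chromatin loops, and TCF-1 (from Tcf7) and LEF1 are the DNA-binding partners of beta-catenin that maintain naive and memory T cells. Tissue Treg cells are known as effector cells, in which the first set is high and the second low.

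A cell was kept when its well held at least 500 detected genes and 10000 counts. Each plate had 87 wells of single cells, of which 62 and 58 were kept for vehicle and 38 and 44 for imiquimod, or 120 and 82 cells. Kept cells held 47481 to 5946386 counts, and the median number of genes detected was 1040.0 and 1503 under vehicle and 975 and 1093 under imiquimod. Of the kept cells, 92.6% had a count of at least 1 of 11 T cell markers and 85.1% of at least 1 of 5 Treg markers (85.5% and 93.1% under vehicle, 68.4% and 88.6% under imiquimod). All cells with Batf, Prdm1 or Maf also had a T cell marker, as did 91.7% (Bhlhe40) to 97.6% (Bach2) of the cells with 1 of the other factors. Counts are reads without molecular identifiers, so each interval or limit below covers counting error only.

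Each factor was detected in a minority of cells. "Detected" means at least 1 count, and levels in single cells are counts scaled to a fixed total per cell (CPM). Bhlhe40 had a count in 60 cells (29.7% of those kept) and Satb1 in 59 (29.2%), the most of the 10. Batf followed with 45 cells (22.3%), then Bach2 with 41 (20.3%), Tcf7 with 36 (17.8%), Maf with 33 (16.3%), Nfil3 with 30 (14.9%), Lef1 with 26 (12.9%), Irf4 with 20 (9.9%) and Prdm1 with 8 (3.96%). Neighbours in this order differed by less than the range over the plates, and factors of both sets were interleaved.

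**Figure D1:**
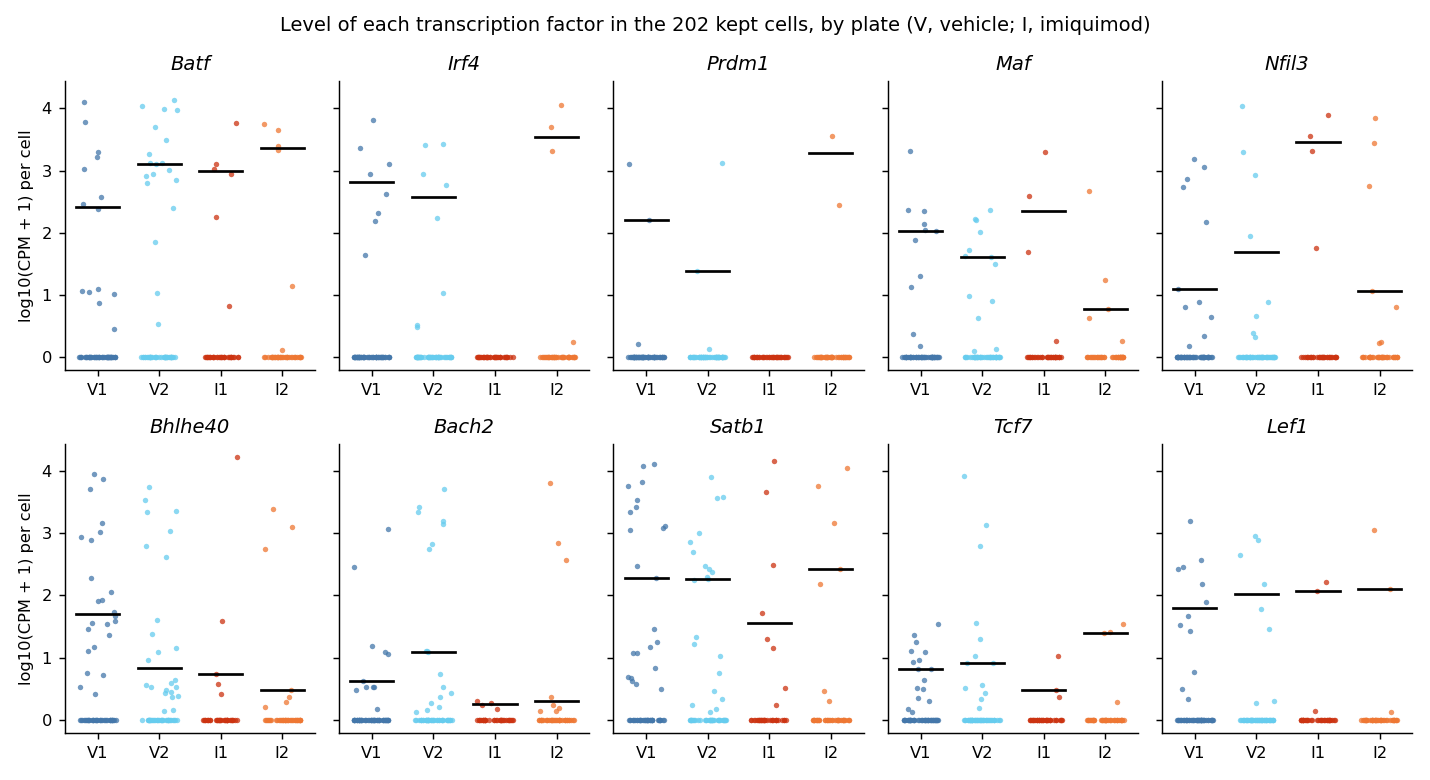
Each point is 1 kept cell. The vertical axis is log10(CPM + 1) of the named gene, the horizontal axis the plate (V1, V2 vehicle; I1, I2 imiquimod), and the black line the median of the cells with a count. Most cells lie at 0, and cells with a count spread from under 1 CPM to over 10000 CPM. No cell of the first imiquimod plate had an Irf4 or Prdm1 count, and Tcf7 passed 100 CPM in 3 cells, all of the second vehicle plate.

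Where a factor was detected, its level varied widely between cells and plates. These are levels in CPM, not per length, and describe each gene by itself. The median over detected cells was 1016 CPM for Batf and 725.9 CPM for Irf4. It was 217.7 CPM for Prdm1, 180.9 for Satb1, 96.8 for Lef1, 72.6 for Nfil3, 41.8 for Maf, 25.5 for Bhlhe40, 7.26 for Tcf7 and 2.38 for Bach2. By plate, this median ran from 262.7 to 2285 CPM for Batf and from 10.6 to 2846 CPM for Nfil3. Batf stood at 100 CPM or more in 33 of its 45 cells, Tcf7 in 3 of 36 and Bach2 in 12 of 41. In 17 of the 41 Bach2 cells the call rested on a single count. Over the 10 genes, 130 detections (36.3%) lay under 10 CPM, against a median of 50% (quartiles 30.4% and 75.3%) over the 12449 genes detected in at least 3% of cells.

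Between genes, levels are compared per kilobase of exon. On that scale, as the mean over the 4 plates of TMM-normalised CPM (counts of a plate's summed cells, scaled by edgeR's trimmed mean) divided by exon length, Batf led with 355.9. Nfil3 followed with 140.2 and Bhlhe40 with 124.8. Irf4 had 37, Satb1 24.9, Tcf7 12.1, Bach2 10, Lef1 6.74, Maf 6.36 and Prdm1 6.11. The highest 4 of the 10 were thus effector factors, and the lowest, Maf and Prdm1, were effector factors too, close to the naive factor Lef1. The plates of a treatment differed by several-fold or far more for many of these genes. Tcf7 had 2.04 and 121.3 TMM CPM on the vehicle plates, and Bach2 0.0856 and 158.7 on the imiquimod plates. Neighbours in this order are therefore not separated by these data, nor are Maf and Prdm1 from the naive factors.

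Among the effector factors, Batf, the AP-1 family partner of IRF4, had a count in 14 of 62 and 19 of 58 vehicle cells (22.6% and 32.8%). On the imiquimod plates it was counted in 6 of 38 and 6 of 44 (15.8% and 13.6%). Both imiquimod plates lay below both vehicle plates in the share of cells. Its level did not follow the share: summed over the cells of each plate, Batf had 328.4 and 698.2 TMM CPM under vehicle and 607.8 and 367.4 under imiquimod, and the plates overlapped. The medians over its detected cells were 262.7 and 1296 CPM under vehicle and 977.9 and 2285 CPM under imiquimod. For Batf, the log2 fold change was -0.07 ± 0.96 (SE; adjusted p 0.991, edgeR). Each edgeR SE given here is the size of the log2 fold change divided by the square root of the test's F statistic.

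Irf4 was counted in 8 and 8 vehicle cells (12.9% and 13.8%) and in 0 and 4 imiquimod cells (0% and 9.09%). A count of 0 in 38 cells allows a share of up to 7.89%. Plate sums were 178.2 and 115.98 TMM CPM under vehicle and 0 and 430.9 under imiquimod, so the imiquimod plates stood on either side of the vehicle plates. On the second imiquimod plate, 1 cell of 11442 CPM carried 48% of the Irf4 counts. Prdm1, whose product acts downstream of IRF4 in effector Treg cells, had a count in 3 and 3 vehicle cells (4.84% and 5.17%) and 0 and 2 imiquimod cells (0% and 4.55%). It reached 41.3 and 21.2 TMM CPM under vehicle and 0 and 73.7 under imiquimod. A single cell held 91% or more of the Prdm1 counts on each of the 3 plates that had any. The log2 fold changes of these genes, 0.55 ± 2.39 for Irf4 and 0.24 ± 3.38 for Prdm1 (adjusted p 0.967 and 0.992, edgeR), are as wide as these sums.

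Maf was counted in 11 and 13 vehicle cells (17.7% and 22.4%) and 4 and 5 imiquimod cells (10.5% and 11.4%). The shares did not overlap between treatments, but the plate sums did: 54.9 and 18.1 TMM CPM under vehicle against 123.3 and 13.5 under imiquimod. One cell gave 70% of the Maf counts of the first imiquimod plate and 95.8% of those of the second. The log2 fold change of Maf was 0.91 ± 2.70 (adjusted p 0.949, edgeR).

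Nfil3 was the exception to the lower shares among the effector factors. It had a count in 11 and 8 vehicle cells (17.7% and 13.8%) and in 4 and 7 imiquimod cells (10.5% and 15.9%), and these shares overlapped. Its plate sums did not: 120.6 and 105.8 TMM CPM under vehicle and 599.9 and 310.1 under imiquimod. No other member had both imiquimod plates above both vehicle plates, which 13.7% of the 14462 genes tested did. The log2 fold change was 2.01 ± 1.26 (unadjusted p 0.137, adjusted p 0.563, edgeR). Few cells carried it, since the highest cell gave 47% and 64.4% of the Nfil3 counts on the imiquimod plates and 37% and 49.2% on the vehicle plates. Without the highest cell of each plate the log2 value was 2.37, and on the mean log2(CPM + 1) of all cells it was 0.12. DESeq2 called the gene (2.54, adjusted p 0.0178), as it did 3740 of the 14462 genes tested.

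Bhlhe40, the repressor induced by T cell receptor signals, gave the widest gap in shares. It was counted in 24 of 62 and 24 of 58 vehicle cells (38.7% and 41.4%) and in 5 of 38 and 7 of 44 imiquimod cells (13.2% and 15.9%). The means were 40% ± 1.89 and 14.5% ± 1.95 (SD, n = 2 plates each), a difference of -25.5 percentage points, with an exact two-sided permutation p of 0.33, the smallest that 2 plates against 2 allow. Among cells with at least 1000 genes the shares were 52.9% and 50% against 0% and 21.4%, where 0 of 19 cells allow a share of up to 15.8%. Yet the plate sums of Bhlhe40 were 595.5 and 584.3 TMM CPM under vehicle and 981.6 and 187.1 under imiquimod. A single cell of 16966 CPM held nearly all the counts of the first imiquimod plate, and the other 4 cells with a count there were low. The log2 fold change of -0.01 ± 0.97 (adjusted p 0.998, edgeR) became -2.71 without the highest cell of each plate and 0.60 under DESeq2, neither called. The uncharacterised gene 0610040F04Rik overlaps Bhlhe40 on the opposite strand. It had a count in 30 cells, 26 of which also had a Bhlhe40 count, and without a known strand setting their reads cannot be told apart.

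Of the naive factors, Bach2 is the repressor that opposes Prdm1 and the effector program. It had a count in 11 and 18 vehicle cells (17.7% and 31%) and in 4 and 8 imiquimod cells (10.5% and 18.2%), and the shares overlapped narrowly. Plate sums were 29.4 and 209.4 TMM CPM under vehicle and 0.0856 and 158.7 under imiquimod. The 4 cells of the first imiquimod plate held 1 count each, none above 1.02 CPM. On that plate the Bach2 share therefore rested on single counts, and its level was close to nothing. The log2 fold change was -0.59 ± 2.55 (adjusted p 0.967, edgeR), 1.47 without the second vehicle plate and -1.93 without the highest cell of each plate.

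Satb1, the chromatin organiser that naive T cells express strongly, was counted in 23 and 21 vehicle cells (37.1% and 36.2%) and in 8 and 7 imiquimod cells (21.1% and 15.9%). The means were 36.7% ± 0.629 and 18.5% ± 3.64 (SD, n = 2 plates each; exact permutation p 0.33). Its level was the highest of the naive factors on the plate sums, at 895.7 and 288.05 TMM CPM under vehicle and 339.3 and 373.2 under imiquimod. The imiquimod plates fell between the vehicle plates, and the log2 fold change was -0.73 ± 1.01 (adjusted p 0.852, edgeR). In cells with at least 1000 genes it was -3.23 ± 1.33 (adjusted p 0.403, edgeR). In 19 of 59 Satb1 cells the level was 1000 CPM or more, so it was not a trace count in these wells. A well without a cell also held Satb1, at 10484 CPM.

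Between Tcf7 and Lef1, the paired HMG-box factors, the order of the plate sums changed: Tcf7 stood above Lef1 on the second vehicle plate only. Tcf7 was counted in 16 and 13 vehicle cells (25.8% and 22.4%) and 3 and 4 imiquimod cells (7.89% and 9.09%). These are means of 24.1% ± 2.4 and 8.49% ± 0.846 (SD, n = 2 plates each; exact permutation p 0.33). The 16 cells of the first vehicle plate ranged from 0.349 to 33.7 CPM with a median of 5.51, which is a trace in each. Its plate sums were 2.04 and 121.3 TMM CPM under vehicle and 0.941 and 2.96 under imiquimod, and 1 cell of 8413 CPM gave 55.9% of the counts of the second vehicle plate. For Tcf7, the log2 fold change was -4.98 ± 3.68 (adjusted p 0.649, edgeR), and -0.04 without that plate.

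Lef1 was counted in 12 and 8 vehicle cells (19.4% and 13.8%) and 3 and 3 imiquimod cells (7.89% and 6.82%). Its plate sums were 130.8 and 57.5 TMM CPM under vehicle and 14 and 34.5 under imiquimod. Both imiquimod plates lay below both vehicle plates, which was so for 31.1% of the genes tested and for no other member. The log2 fold change was -1.95 ± 2.61 (adjusted p 0.845, edgeR), and 1 of 3 cells with a count gave 86.6% and 88.2% of the Lef1 counts on the imiquimod plates. Without the highest cell of each plate the log2 value was -3.11.

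**Figure D2:**
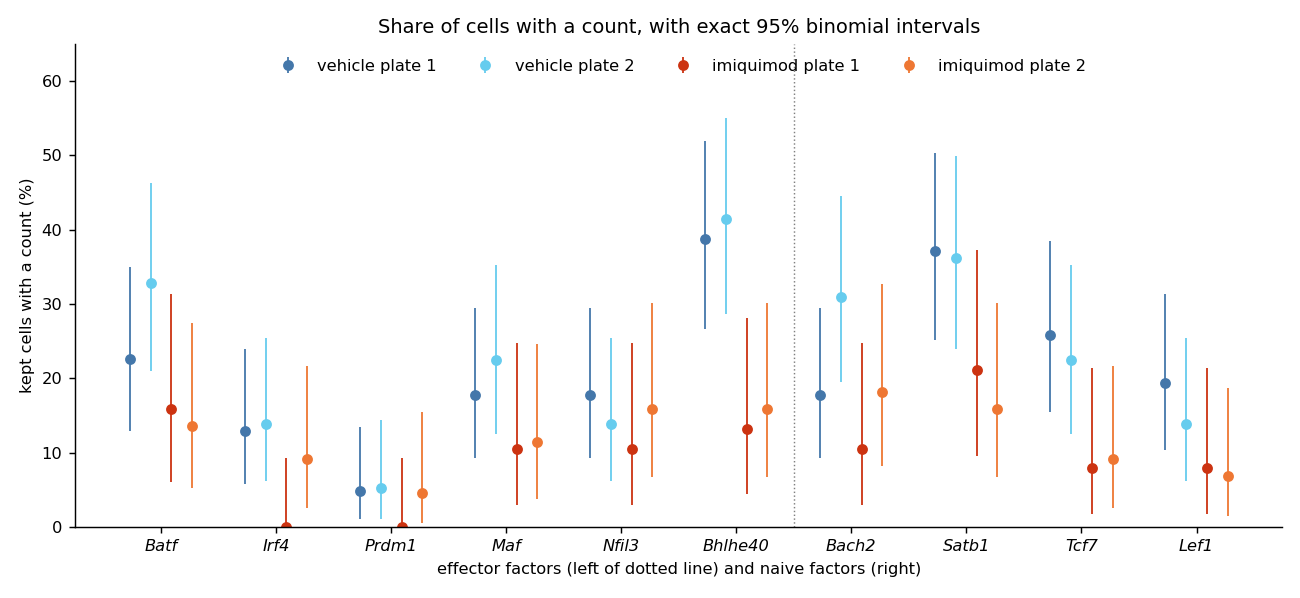
Points give the percentage of kept cells with a count of each factor on each plate, and bars the exact 95% binomial interval. For all but Nfil3 and Bach2 both imiquimod points lie below both vehicle points, most widely for Bhlhe40 (38.7% and 41.4% against 13.2% and 15.9%).

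Side by side, 8 of the 10 factors, 5 effector and 3 naive, were detected in a smaller share of cells on both imiquimod plates than on both vehicle plates, and none in a larger share. Of all 12449 genes detected in at least 3% of cells, 44.7% showed the same pattern and 5.84% the opposite one. The exact permutation p was 0.33 for these 8 factors and 0.667 for Nfil3 and Bach2 (0.416 and 0.667 adjusted over the 10 tests), in a design that cannot pass 0.05. As a ratio of imiquimod to vehicle shares the factors had a median of 0.48, from 0.34 for Irf4 to 0.84 for Nfil3, and all genes a median of 0.64 (quartiles 0.44 and 0.94). The count was 8 of 10 with each cell thinned to 410000 counts and 8 of 10 when detection meant 10 CPM or more. These were not the same 8, as in both settings Prdm1 overlapped in place of Bach2, beside Nfil3. Among cells with at least 1000 genes (34 and 40 of vehicle, 19 and 28 of imiquimod) the count was 9 of 10, all but Nfil3. All genes gave 47.5%, 44% and 41.3% under those settings. Fewer cells with a factor and less of its RNA per cell cannot be told apart in these shares.

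By level, none of the 10 factors passed the test. edgeR called 0 of the 14462 genes (0%) at an adjusted p of 0.05, where 1669 had an unadjusted p under 0.05, of which 1420 were lower. No factor was among them. DESeq2 called 3740 of the same 14462 genes, and of the 10 factors only Nfil3. The median log2 fold change was 0.39 over the 6 effector factors, of which 4 were positive, and -1.34 over the 4 naive factors, of which none was. Over all genes it was -0.26, with 46.6% positive. Under DESeq2's size factors that median moved to 0.11 and Batf and Bhlhe40 became positive, while the 4 naive factors stayed negative.

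Gene length moved with these fold changes. When 12970 genes with a matched span were put into 5 equal classes of length, the class medians of log2 fold change were 0.95 for the shortest genes, then 0.43, -0.13 and -0.73, and -1.60 for the longest. Bach2, Satb1, Lef1 and Prdm1 belong to the longest class, with spans of 347.3, 97.1, 113.9 and 91.3 kb. Batf (22.4 kb), Maf (24.9 kb) and Tcf7 (30.6 kb) lie in the middle class, Irf4 (17.8 kb) and Nfil3 (13.9 kb) in the second, and Bhlhe40 (6.3 kb) in the shortest. Of the naive factors 3 of 4 were thus long genes, against 1 of 6 effector factors. Spans come from an older assembly than the reads were aligned to, and the part of gene length in the members' values was not tested.

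The number of factors per cell gives the same shares from the side of the cell. Vehicle cells had on average 1.15 and 1.29 of the 6 effector factors and imiquimod cells 0.50 and 0.70, or 1.22 ± 0.10 against 0.60 ± 0.14 (SD, n = 2 plates each; exact permutation p 0.33). For the 4 naive factors the means were 1.00 and 1.03 under vehicle and 0.47 and 0.50 under imiquimod, or 1.02 ± 0.02 against 0.49 ± 0.02 (exact permutation p 0.33). The difference had the same sign for both sets, and their plates did not overlap. With cells thinned to 410000 counts the differences were -0.59 and -0.46 factors, against -0.62 and -0.53 without thinning.

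Factors per cell moved with genes per cell. Cells with none of the 10 factors had a median of 724 genes, those with 1 had 997.5, those with 3 had 1841 and those with 5 had 2430.5. The 6 cells with 6 or more factors were all vehicle cells. In a comparison added after the values were seen, cells were split into 3 groups of like size by genes detected. Cells of 860 to 1553 genes had 2.17 and 1.71 factors under vehicle and 0.71 and 1.28 under imiquimod, with plate medians of 1037 and 1157 against 1142 and 1101 genes. The part of genes per cell in the difference was not tested. Among cells of 1567 to 8033 genes the values were 3.35 and 3.33 against 2.17 and 1.67, where the medians of genes were 2840.0 and 2740.0 against 2154 and 1965. In the group of 501 to 851 genes they were 0.81 and 1.14 against 0.78 and 0.71. Per 1000 genes detected, also added later, vehicle cells had 1.28 and 1.21 factors and imiquimod cells 0.89 and 0.90 (1.24 ± 0.06 against 0.89 ± 0.01, SD, n = 2 plates each; exact permutation p 0.33).

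**Figure D3:**
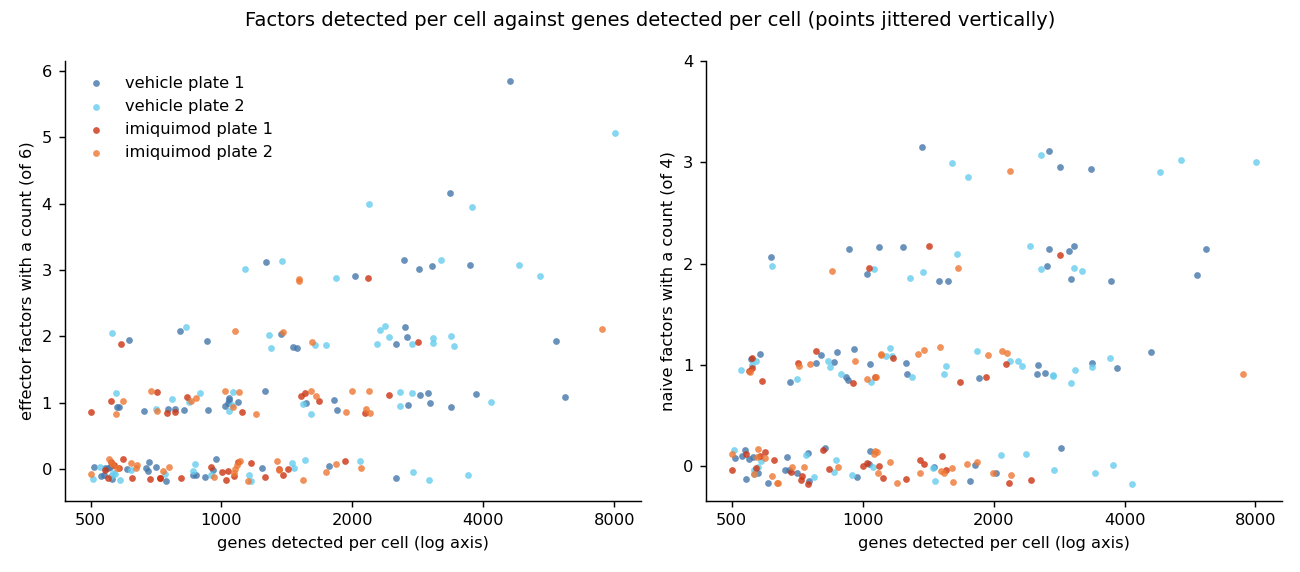
Each point is 1 kept cell, coloured by plate. The horizontal axis is the number of genes detected on a log scale, the vertical axis the number of effector (left) or naive (right) factors with a count, with a small vertical jitter. Cells with more genes have more factors of both sets, and the cells with 4 or more effector factors are all vehicle cells.

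Effector and naive factors were often found in the same cells. Of all kept cells, 53 (26.2%) had no factor, 38 (18.8%) had effector factors alone, 32 (15.8%) naive factors alone and 79 (39.1%) had both. If the sets were counted independently within each plate, the product of their shares would give 25.8, 25.6, 5.9 and 9.4 cells with both on the 4 plates. The observed numbers were 31 and 30 on the vehicle plates (50% and 51.7% of cells) and 7 and 11 on the imiquimod plates (18.4% and 25%). Among cells with at least 1000 genes they were closer to the product of shares. There, 25 and 26 vehicle cells had both against 24.6 and 24.0, and 3 and 9 imiquimod cells against 3.4 and 7.9. At 10 CPM or more, 45 cells had both, 46 effector factors alone and 23 naive factors alone. There the numbers with both stood above the product of shares on each plate. They were 19 and 17 against 13.7 and 12.8 under vehicle, and 4 and 5 against 2.3 and 3.7 under imiquimod. Of the cells with an effector factor at any count, 79 also had a naive factor and 38 did not.

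Among the 45 pairs of factors, 39 were seen together in more cells than the product of their shares, with a median ratio of 1.29. By plate the median ratio was 1.41 and 1.49 under vehicle and 0.59 and 1.05 under imiquimod. With counts summed over the 45 pairs before the ratio was taken, it was 1.42 and 1.37 under vehicle and 1.23 and 1.20 under imiquimod, where the pairs gave 19 and 34 joint detections in all. The pooled ratio is near what any gene gives: each factor set against 4633 other genes detected in at least 10% of cells had a median ratio that was 1.33 in the median over factors. By kind of pair, the median was 1.37 within the effector set (15 of 15 pairs above 1), 1.32 between the sets (20 of 24) and 1.22 within the naive set (4 of 6). Among cells with at least 1000 genes the median over all pairs was 1.10, with 29 of 45 above 1, and at 10 CPM or more it was 1.61, with 42 above 1. At 10 CPM the medians by kind were 1.72, 1.56 and 1.87, the last over 6 naive pairs of which 2 reached 5 cells. With counts summed first, the ratios at 10 CPM were 1.88, 1.60 and 1.72. The order of the kinds thus depended on the threshold and on the summary used.

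**Figure D4:**
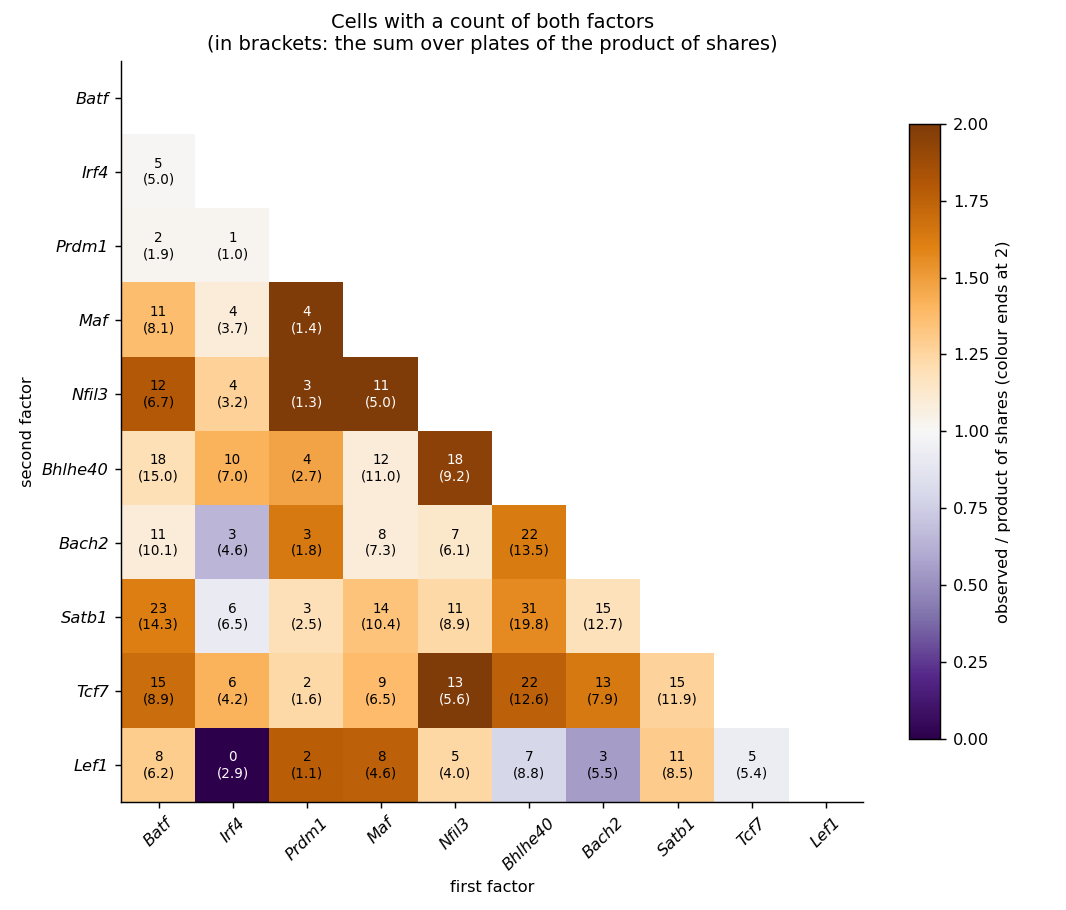
Rows and columns are the 10 factors. Each square gives the number of cells with a count of both factors and, in brackets, the number from the product of their shares summed over plates, and the colour is the ratio. Nfil3 with Tcf7 (13 against 5.6 cells) and Nfil3 with Maf (11 against 5.0) lie at the high end, and Irf4 with Lef1 (0 against 2.9) at the low end.

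Bhlhe40 and Satb1 gave the most frequent pair, in 31 cells against 19.8 from their shares. Bhlhe40 also met Tcf7 in 22 cells against 12.6 and Bach2 in 22 against 13.5. These are pairs across the 2 states, and their ratios of 1.57, 1.75 and 1.63 stood above the 1.20 that Bhlhe40 had with other genes. In cells with at least 1000 genes they were 1.32, 1.36 and 1.41. With Lef1, the remaining naive factor, Bhlhe40 shared 7 cells against 8.8, a ratio of 0.79. Nfil3 was seen with Bhlhe40 in 18 cells against 9.2, with Tcf7 in 13 against 5.6 and with Maf in 11 against 5.0, where its median with other genes was 1.48. Batf met Satb1 in 23 cells against 14.3. The DNA-binding partners Batf and Irf4 shared 5 cells, against 5.0 from their shares, and the related Tcf7 and Lef1 also shared 5, against 5.4. Irf4 and Lef1 shared none of their 20 and 26 cells, against 2.9. Bach2 and its target Prdm1 shared 3 cells against 1.8, and Bach2 and Lef1 shared 3 against 5.5. No pair was tested, and counts this small vary by several cells from counting alone.

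Foxp3, the factor that defines Treg cells, had a count in 75 kept cells. Batf was counted in 28 of these (37.3%) and in 17 of the other cells (13.4%), 1.64 times the number from the product of shares. Maf was counted in 21 (28%) and 12 (9.45%), a ratio of 1.68. Bach2 was the only factor with a smaller share in Foxp3 cells, 14 of 75 (18.7%) against 27 other cells (21.3%), a ratio of 0.91. Satb1, Bhlhe40 and Tcf7 had ratios of 1.16, 1.14 and 1.09. Cells with Foxp3 had more genes, 1993 in the median against 945, and 4632 genes detected in at least 10% of cells had a median ratio with Foxp3 of 1.37 (quartiles 1.19 and 1.55). Batf, Maf and Prdm1 (5 of 75 cells, a ratio of 1.67) lay above those quartiles and Bach2, Satb1, Bhlhe40 and Tcf7 below them, with Irf4 (1.19) at the lower quartile.

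The genes most like each factor over the kept cells were found by the Pearson correlation of log2(CPM + 1) after plate means were removed, among about 1559 genes detected in at least 20% of cells. Every correlation was weak, and cells share library depth. Lef1 was most like Eif3f (r = 0.46), Satb1 most like Atf7 (0.45), Maf most like Cd5 (0.41), a surface receptor of T cells, and Prdm1 most like Odf2 (0.41). Bhlhe40 was most like Rock1 (0.41), Nfil3 most like Gm8909 (0.38), Irf4 most like Nfkbiz (0.35), Batf most like Scaf4 (0.34), Tcf7 most like Nabp1 (0.32) and Bach2 most like Gm41534 (0.28). Second in likeness were Ankrd12 for Batf (0.31), Akap9 for Irf4 (0.34), Spats1 for Prdm1 (0.32), AU020206 for Maf (0.40), Ube2d3 for Nfil3 (0.38) and Elavl1 for Bhlhe40 (0.36). For the naive factors they were Cnbd1 for Bach2 (0.27), Fam169b for Satb1 (0.40), Dapp1 for Tcf7 (0.30) and Dip2c for Lef1 (0.38). Of the factors, Bhlhe40, Satb1, Batf and Bach2 were detected often enough to be candidates, and none of them was among the genes named. Between the factors themselves the highest r was 0.29, for Maf and Nfil3, and the lowest was -0.12, for Irf4 and Lef1.

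Wells of 10 cells showed the factors more often, with lower highest values. They held 710021 to 9159522 counts and a median of 6624 genes, and a well had 2 to 10 of the 10 factors, 7.5 in the median. Satb1 was counted in 14 of the 16 wells, Batf and Maf in 13 each, Bhlhe40 in 12, Irf4, Nfil3 and Bach2 in 11 each, Lef1 in 10, and Prdm1 and Tcf7 in 8 each. Batf had a median of 181.1 CPM and a highest well of 1014, Bhlhe40 118.9 and 2000.4, Satb1 117.1 and 818.97, Irf4 56.8 and 489.1, and Nfil3 22.1 and 440.7. Maf had a median of 15.3 CPM (highest 151.1), Prdm1 1.2 (413.3), Lef1 0.659 (147.9), Bach2 0.521 (426.02) and Tcf7 0.257 (29.3). Batf was again the highest per kilobase of exon, with a mean of 201.1 CPM, ahead of Bhlhe40 with 67.4 and Nfil3 with 55.1, while Tcf7 was the lowest with 1.81. Unlike in the single cells, Prdm1 with 19 stood above all naive factors (Satb1 9.99, Bach2 7.59, Lef1 2.61). Maf had 4.99.

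**Figure D5:**
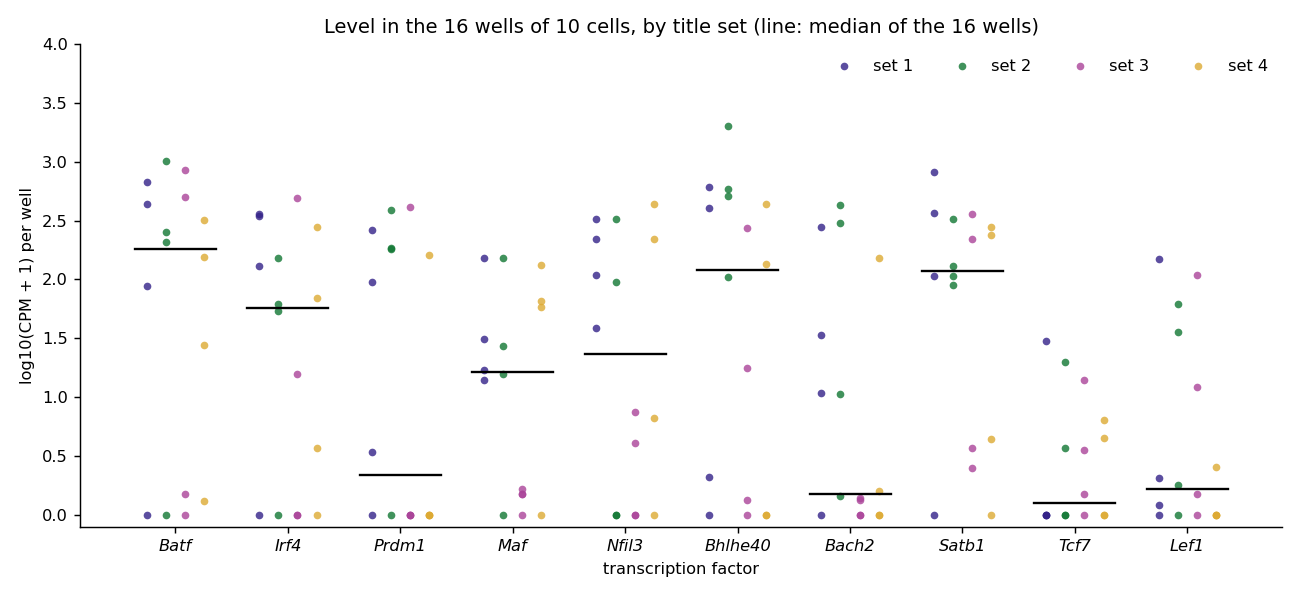
Each point is 1 well of 10 cells, coloured by its set of titles. The vertical axis is log10(CPM + 1) and the black line the median of the 16 wells. Batf, Bhlhe40, Satb1 and Irf4 have medians from 56.8 to 181.1 CPM, and no well has Tcf7 above 29.3 CPM.

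The share of kept single cells with a count gives a number of wells in which 10 such cells drawn together would show a factor. For Tcf7 that number was 13.8 of 16, or 9.0 from the plate of lowest share, and 8 were seen. For Bhlhe40 it was 15.5, or 12.1 from the plate of lowest share, and 12 were seen. Prdm1 went the other way, with 5.3 from its share and 8 seen, and Irf4 had 10.4 and 11. The factors' median gap between the observed and pooled shares was -11 percentage points, from -36 for Tcf7 to 16.8 for Prdm1. Over 8663 genes detected in 5% to 35% of single cells the median gap was -14.5 points (quartiles -27.5 and -2.24), and 79.1% of genes were below. No label gives the wells' treatment, so their mix of cells may differ from that of the single cells.

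The 4 sets of 4 wells differed for single factors. Library numbers in the titles run in blocks of 96, each with the single cells of a plate. Sets 1 and 2 lie in the blocks of the vehicle plates, sets 3 and 4 in those of imiquimod plates 1 and 2. No label gives these wells a treatment, and the part of the plates in the set differences was not tested. In the third set no well passed 0.679 CPM of Maf or 0.408 CPM of Bach2, whereas the highest wells of the second set held 151.1 and 426.02 CPM. On imiquimod plate 1, in the block of set 3, single cells reached at most 1.02 CPM of Bach2 but 2007 CPM of Maf. Batf was counted in 3 or 4 wells of every set, with set medians from 90.8 to 259.7 CPM. Median genes per well in the sets ran from 4693 (the third) to 8132 (the first).

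Wells without a cell gave the background. They reached 885 genes and 1527760 counts, and 1 of the 20 passed the filter used for cells. Of the 20 wells, none had a count of Batf, Irf4, Prdm1, Maf, Nfil3, Bach2, Tcf7 or Lef1. By the number of wells alone, this allows a share of up to 15% for each. In the median, however, a well without a cell held fewer counts and fewer genes than any kept cell. Many of these zeros thus came from wells with few reads, and the limit of 15% does not allow for that. Bhlhe40 had 1 count in 1 of the 20 wells. Satb1 had 1510 counts in another, described among the flagged results.

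Genes that work with the factors were read from lists of partners, cofactors and targets. Of 18 AP-1 and IRF partners 14 were tested and none passed the test (edgeR), 10 had a positive log2 fold change and the median was 1.11. The 3 of highest level were Junb (1616 and 1188 TMM CPM under vehicle, 2899.6 and 2896 under imiquimod), Fos (695.8 and 298.2 against 4055 and 2854) and Irf1 (352.5 and 191.9 against 259.7 and 1418). Junb and Fos encode AP-1 subunits, and both had imiquimod plates above both vehicle plates, as 13.7% of all genes tested did. Their log2 values were 1.05 ± 0.48 and 2.80 ± 0.59 (adjusted p 0.435 and 0.42, edgeR). Of 13 cofactors of TCF and LEF factors 12 were tested, none passed, 6 were positive and the median was -0.75. Runx1 (0.06 ± 0.76), Hdac1 (0.11 ± 1.63) and Tle4 (-3.06 ± 2.40) were the 3 of highest level.

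Of 20 genes of the effector Treg program 19 were tested, none passed (edgeR), 12 were positive and the median was 0.43. Rora, a tissue Treg nuclear receptor, had log2 -0.32 ± 0.56, the interleukin-2 receptor gene Il2ra -1.46 ± 0.58 and the costimulatory receptor gene Tnfrsf4 1.66 ± 0.69. Il2ra had 2621 and 1887 TMM CPM under vehicle and 656.9 and 977.7 under imiquimod, and Tnfrsf4 had 797.4 and 668.8 against 3684 and 943.8. Il2ra lay lower and Tnfrsf4 higher on both imiquimod plates than on both vehicle plates, and the adjusted p was 0.42 for both (edgeR). Of all genes tested, 31.1% lay lower and 13.7% higher in that way. Of 14 genes of naive and recirculating T cells 13 were tested, none passed, 5 were positive and the median was -0.14. Ets1 (0.58 ± 0.63), Foxp1 (-1.21 ± 0.98) and Cd27 (1.45 ± 1.08) were the 3 of highest level. By detection, 4 of 13 AP-1 and IRF partners had lower shares on both imiquimod plates, as did 6 of 10 cofactors, 14 of 19 effector targets and 9 of 11 naive genes, beside the 8 of 10 factors and the 44.7% of all genes.

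Markers of other cells were also counted. Macrophage markers were counted in 80 cells (39.6%), with C1qa and C1qb at 0 and summed levels of 4.02 and 97 CPM under vehicle and 13.2 and 61.7 under imiquimod. Mast cell markers, 2 of 4 with a count and Mcpt4 and Fcer1a at 0, were counted in 37 cells, with 272.6 and 115.6 CPM under vehicle and 4.5 and 6.42 under imiquimod. Dendritic cell markers reached 141.1 and 396.8 against 253.97 and 527.2 CPM, with Cd209a at 0. Markers of B and plasma cells were seen in 3 cells, of CD8 T cells in 4 and of keratinocytes in 4. Markers of group 2 innate lymphoid cells, a list that tissue Treg cells share in part, were seen in 56.9% of cells, at summed levels of 1234 and 977.99 CPM under vehicle and 2348 and 1256 under imiquimod, with Il5 at 0. The T cell markers themselves summed to 4672 and 3524 against 5187 and 2512 CPM. Melanocyte markers were counted in 44 cells (73.9 and 96.4 against 149.2 and 113.2 CPM, Tyrp1 at 0) and fibroblast markers in 21 (84.3 and 229.8 against 119.5 and 202.5 CPM). The part of such cells in the factors' values was not tested. Batf, Prdm1 and Maf had no count in the 15 cells without a T cell marker, and Bhlhe40 had one in 5.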

How the data were processed

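Wells with 1 sorted Treg cell, 10 cells or no cell were sequenced as oligo dT-primed, template-switched libraries, per the labels' protocols. The authors deposited read counts by gene and well in 1 matrix. The submitters' processing notes name mm39, SAMtools 1.12, STAR 2.7.3a and Trimmomatic 0.39. How reads were counted, and with which strand setting, is not given in the sources used here. No molecular identifiers are mentioned.

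Counts of kept cells were summed per plate (90448592 and 99396458 under vehicle, 67319087 and 99183184 under imiquimod) and tested over all genes with edgeR 4.0.16 (quasi-likelihood, default filter, TMM scaling, Benjamini-Hochberg adjustment, threshold 0.05). A check on simulated data used much less spread between plates than edgeR estimated here (common dispersion 2.71). It therefore does not show which changes could be detected in these data. The plate was the replicate, with 2 per treatment. As no label ties a plate to a mouse, p-values measure the spread between plates, which may be technical. Plates lie within treatments, so plate and treatment differences cannot be told apart beyond that spread. For shares of cells the test was an exact permutation test, two-sided. Exon lengths and spans came from GENCODE annotation of GRCm38. Alternatives were DESeq2 1.42.0, its size factors, limma 3.58.1 on mean log2(CPM + 1), no expression filter, at least 1000 genes per cell, thinning to 410000 counts (20 shallower cells left out: 11 and 3 vehicle, 6 and 0 imiquimod), detection at 10 CPM, removal of the highest cell of each gene and plate, and leaving out each plate. No doublet caller was run on sorted wells, and no counts of 2 kept cells were identical. Intervals are exact binomial ones at 95%, and a count of 0 is given a limit of 3 counts.

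The members and lists were chosen with earlier results of these data known. Named were all 10 members, the 3 genes of highest mean level in each related list plus any past the test, and the 2 genes most like each member.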

Additional observations from a re-analysis of the deposited data

Results flagged for a closer look

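One well without a cell had 1510 counts of Satb1, or 10484 CPM, among 144027 counts. It belongs to the second set of empty wells, had a count of 1 T cell marker and did not pass the filter on genes. The level is within the range of the highest Satb1 cells, and the other 19 empty wells had no Satb1 count. No other factor was counted in that well. This signal lies outside the main measurement, and its source was not tested.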

How the results depend on the processing

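The labels' plate numbers link no vehicle plate to an imiquimod plate. No paired analysis was possible because same-numbered plates share nothing else in the labels. Of 110 log2 fold changes of the 10 factors under alternative settings, 89 kept their sign and side of the threshold and 19 changed sign, with none doing so for Nfil3, Tcf7 or Lef1. DESeq2 called 1 factor (Nfil3, 2.54), and all genes called were 3740 with DESeq2, 9 without the expression filter and 0 to 794 with a plate left out. Batf and Bhlhe40 were 0.45 and 0.60 under DESeq2 and equally under its size factors in edgeR. Bhlhe40 was 0.03 after thinning and Irf4 -0.11 in cells with at least 1000 genes. On mean log2(CPM + 1), limma left 1 factor positive, with Irf4 at -0.64, Prdm1 at -0.05 and Maf at -0.48. The detection difference of Nfil3 was 1.31 percentage points after thinning and 1.52 at 10 CPM. With a plate left out, the lone plate of a treatment is assumed to vary like the others. Log2 fold changes then ranged from -0.59 to 0.57 (Batf), -16.70 to 1.65 (Irf4), -14.47 to 1.33 (Prdm1), -1.34 to 1.85 (Maf), 1.56 to 2.51 (Nfil3), -1.55 to 0.84 (Bhlhe40), -10.30 to 1.47 (Bach2), -1.32 to 0.25 (Satb1), -6.0 to -0.04 (Tcf7) and -2.65 to -1.29 (Lef1), and Nfil3's detection difference from -5.24 to 0.142 points. From 0 to 2 factors were called: without the second imiquimod plate, Irf4 and Bach2 (adjusted p 0.00319 and 0.0484, edgeR), at or near 0 on the other one, in a fit whose median over all genes was -6.56. Between 8 and 10 factors then had lower shares under imiquimod. The cause of each other move was not tested. Sums that rest on 1 cell limit every level given here.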
